A study of Mus musculus with 8 samples.

Results

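The suppressors of cytokine signalling (SOCS) family was followed in RNA sequencing libraries of naive CD8 T cells from mouse spleen. The members were chosen by name: Cish and Socs1 to Socs7, which are 8 of the 22609 genes in the table, and all 8 were found. The study compared 4 Brca1 wild type (WT) libraries, numbered 45, 54, 57 and 65 in their titles, with 4 heterozygous (Het) libraries, numbered 31, 53, 56 and 139. All came from C57BL/6 animals 3 months old, with no treatment named. How the Brca1 allele was made, and whether each library is a separate mouse, are not given in the labels. The p-values between genotypes therefore rest on the spread among these libraries, which may not be that among animals.

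SOCS proteins are feedback inhibitors of cytokine receptors that signal through JAK kinases and STAT transcription factors. Each has an SH2 domain, which binds phosphotyrosine, and a SOCS box, which recruits elongins and a cullin 5 ubiquitin ligase. Cish, Socs1, Socs2 and Socs3 are short proteins whose genes are switched on by cytokine signals themselves. Socs4 to Socs7 have long N-terminal regions and act partly on receptor tyrosine kinases. In naive CD8 T cells, which live on interleukin 7 and on weak antigen receptor contacts, Socs1 restrains common gamma chain cytokines and interferon gamma, and Cish restrains signals downstream of the T cell receptor.

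Promoters of cytokine-inducible members are shown as a description of these genes. Their part in how members varied over the libraries, described further on, was not tested. The RefSeq table held the window from 250 bases before to 50 after the gene start for 4 members (Cish, Socs1, Socs3 and Socs4), on GRCm38.p6. The windows lay at chr9:107296409-107296708 (plus strand), chr16:10785487-10785786 (minus strand), chr11:117969317-117969616 (minus strand) and chr14:47276670-47276969 (plus strand). Capitals mark matches on either strand to TTCNNNGAA, the palindromic core bound by STAT dimers, or to GAAA, any 2 bases and GAAA, a core of interferon regulatory factor elements. Each is read 5′ to 3′ on the strand of its gene.
Cish: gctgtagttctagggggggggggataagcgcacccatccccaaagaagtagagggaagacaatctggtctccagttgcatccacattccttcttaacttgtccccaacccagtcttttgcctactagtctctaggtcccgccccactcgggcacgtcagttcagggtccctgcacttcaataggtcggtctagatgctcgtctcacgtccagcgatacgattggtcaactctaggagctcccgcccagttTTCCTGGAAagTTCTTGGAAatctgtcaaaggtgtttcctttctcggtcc
Socs1: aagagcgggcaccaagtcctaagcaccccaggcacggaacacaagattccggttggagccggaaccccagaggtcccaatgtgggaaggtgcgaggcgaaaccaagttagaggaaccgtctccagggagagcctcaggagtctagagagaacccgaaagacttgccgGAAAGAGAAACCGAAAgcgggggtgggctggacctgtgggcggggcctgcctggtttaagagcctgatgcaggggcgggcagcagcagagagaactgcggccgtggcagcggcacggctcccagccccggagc
Socs3: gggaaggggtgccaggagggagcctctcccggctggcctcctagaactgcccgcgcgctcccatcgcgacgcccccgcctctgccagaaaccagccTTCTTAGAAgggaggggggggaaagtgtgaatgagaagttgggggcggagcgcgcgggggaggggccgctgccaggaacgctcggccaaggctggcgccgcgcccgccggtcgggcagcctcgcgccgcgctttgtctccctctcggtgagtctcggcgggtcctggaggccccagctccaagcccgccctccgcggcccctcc
The Cish window held 2 matches to the STAT core, at bases 251 to 259 and 262 to 270 of the window. The Socs3 window held 1, at bases 97 to 105. The Socs1 window held no STAT core and 2 overlapping interferon regulatory factor matches, at bases 168 to 177 and 174 to 183. The Socs4 window held neither. Of all 32851 windows in that table, 8.30% held the STAT core and 3.44% the interferon regulatory factor core. A match is letters in a window and not a site shown to be bound.

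Values are the normalized read counts that the authors deposited, a signal per gene. All 8 libraries had been brought to 1 shared distribution, which hides differences in total RNA, and in such bulk samples fewer cells of a type and less RNA per cell cannot be told apart. Depth could be seen only in low values. The number of different values up to 100, which estimates the reads behind a value of 100, was 106 to 128 in WT libraries against 74 to 121 in Het libraries. Genes above 0 numbered 15358 to 15569 in WT libraries against 13863 to 14656 in Het. The 8 CD8 T cell markers, among them Cd3e and Cd8a, summed to between 208239 and 231529 in WT libraries against between 223847 and 252432 in Het. Markers of B cells (6 genes) summed to 2087.1 to 5731.5 in WT libraries against 2663.4 to 13781.9 in Het, and 7 nerve and glia genes to 1388.5 to 3816.7 and 158.2 to 377.9, with none of these markers at 0 in all libraries. By median log2 difference, markers of B cells (6 of 6 higher in Het, median 0.48), myeloid cells (6 of 6, 0.41), NK cells (5 of 5, 1.01) and CD4 and regulatory T cells (4 of 5, 0.30) lay mostly on the side of Het. None of these passed the limma test described further on, which 0.515% of all tested genes did. Summed values were 1235.4 to 2306.6 (WT) and 1061.7 to 3555.4 (Het) for myeloid, 3840.4 to 6182.5 and 4127.6 to 11231.8 for NK, and 1550.1 to 2772.2 and 1839.9 to 2848.6 for CD4 and regulatory T cell markers. The part of these other cells in the SOCS values was not tested. Brca1 was at 208.1, 148.6, 168.3 and 206.2 in WT 45, 54, 57 and 65, against 174.5, 142.2, 126.7 and 169.6 in Het 31, 53, 56 and 139 (limma adjusted p = 0.742), which does not separate the genotypes.

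Transcripts of all 8 members were found in these bulk libraries, and Socs3 stood far above the rest. Per kilobase of merged exons in GENCODE M21 (GRCm38), Socs3 was at 3526 ± 875 normalized reads (SD over the 8 libraries). On the same per-kilobase scale Socs1 followed at 281 ± 50.7, Socs7 at 251 ± 28.4, Socs4 at 156 ± 33.4, Socs5 at 132 ± 23.4, Cish at 119 ± 18.2, Socs6 at 68.2 ± 11.0 and Socs2 at 8.65 ± 5.75. The lowest Socs3 library lay above the highest library of every other member on this scale. The ranges of Socs1 and Socs7 overlapped, and Socs1 was the higher in 6 of 8 libraries. Socs4 and Socs5 overlapped too (Socs4 higher in 7 of 8), as did Socs5 and Cish (Socs5 higher in 7 of 8), so these neighbours were not separated beyond their spread. Before division by length, the mean Socs3 value was above that of 95.4% of the 12048 tested genes, and the mean Socs2 value above that of 8.60%.

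**Figure D1:**
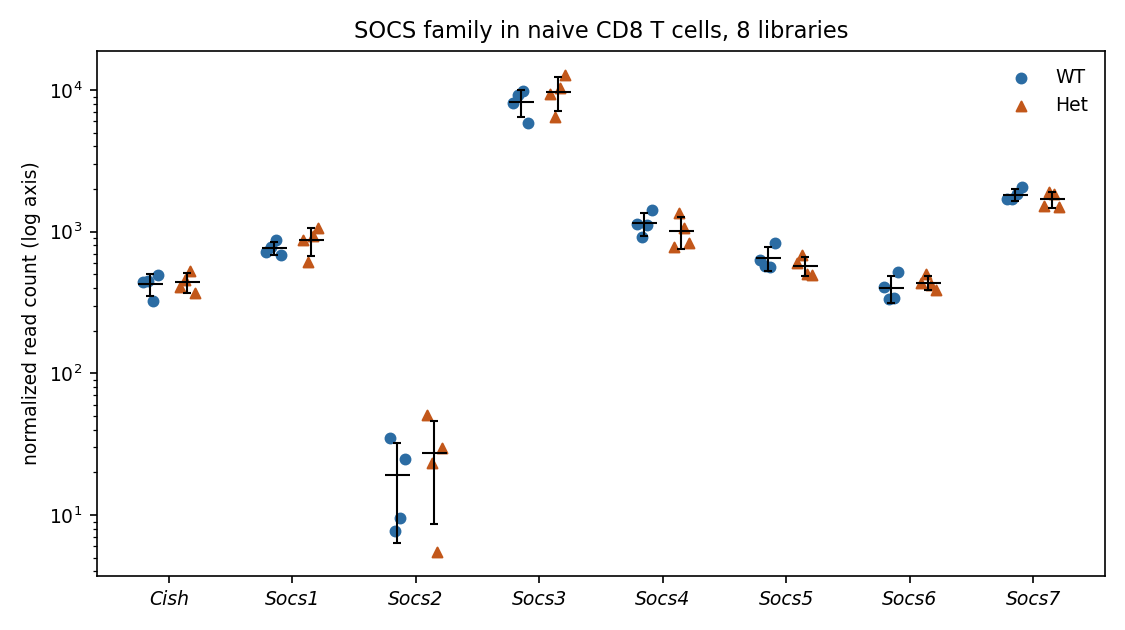
Normalized read count (log axis) of the 8 SOCS family genes in each WT library (circles) and Het library (triangles), with the mean and SD of each genotype (n = 4) in black. Socs3 lies between 5829.6 and 12856.8, Socs2 between 5.5 and 50.8, and the genotypes overlap in every gene.

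No SOCS family gene passed the test between the genotypes. Of the 8 members, all of which passed the filter of a mean of at least 10, 5 were higher and 3 lower in Het, and none passed the limma test (adjusted p from 0.765 to 0.944, Benjamini-Hochberg over 12048 genes, none with an unadjusted p under 0.05 and the smallest 0.305). Over all tested genes, 62 passed, or 0.515%, all of them lower in Het, and the median log2 difference was 0.01, against 0.09 over the 8 members. The genotypes overlapped in all 8 members, while 5% of tested genes had no overlap. For 7 of the 8, the 95% interval of the difference lay within a 2-fold change in either direction, with no bound beyond 0.69 on the log2 scale, so a 2-fold change would lie outside it. The interval of Socs2 did not (-1.17 to 1.95). Differences are those of mean log2(value + 1), where changes of genes with low values come out too small.

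**Figure D2:**
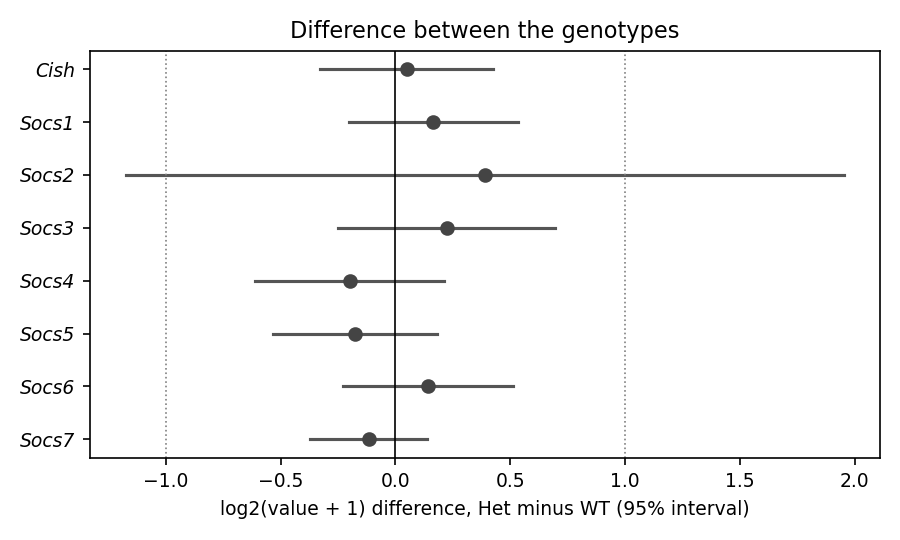
Het minus WT difference of log2(value + 1) for each SOCS family gene (point) with its 95% interval from limma (line), from 4 libraries of each genotype. Dotted lines mark a 2-fold change, and every interval includes 0.

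Socs1, an inhibitor that binds JAK kinases directly, was at 717.1, 782.9, 867.8 and 682.3 in WT 45, 54, 57 and 65. It was at 870.4, 609.7, 931.8 and 1064.2 in Het 31, 53, 56 and 139. Het libraries thus held both its lowest value (Het 53) and its highest (Het 139). The means were 763 ± 81.6 and 869 ± 191 (SD, n = 4 each). The log2 difference was 0.17 (SE 0.17, limma adjusted p = 0.782).

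Socs3, which inhibits JAK kinases while bound to receptors such as gp130, was at 8133.1, 9241.8, 9808.2 and 5829.6 in the WT libraries in the same order. It was at 9329.1, 6429.2, 10350.5 and 12856.8 in the Het libraries. WT 65 and Het 53 were the low libraries and Het 139 the high one. The means were 8253 ± 1759 and 9741 ± 2659 (SD, n = 4 each). The log2 difference was 0.22 (SE 0.21, limma adjusted p = 0.773). Without Het 53 the difference was 0.41 for Socs3 and 0.33 for Socs1 (limma unadjusted p = 0.0489 and 0.0316, adjusted p = 0.572 and 0.548), and without Het 139 it was 0.075 and 0.059.

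Cish, a direct target of STAT5, was at 443.8, 445.6, 322.8 and 494.5 in WT libraries, against 404.6, 458.2, 528.8 and 368.6 in Het libraries. WT 57 was lowest and Het 56 highest. Its log2 difference was 0.05 (SE 0.17, limma adjusted p = 0.944), with a sign that changed when WT 57 or Het 56 was left out (-0.079 and -0.044). In GENCODE M21 Cish overlaps Gm17040 and Gm17041 on the opposite strand. The strand setting of the counting is not given, so reads of these genes may be among its count.

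Socs2, an inhibitor of growth hormone signalling, was near the bottom of the tested range. It was at 34.9, 7.7, 9.6 and 24.9 in WT libraries, against 50.8, 23.3, 5.5 and 29.9 in Het libraries. High and low libraries occurred in both genotypes, with Het 31 highest and Het 56 lowest. By the number of different values up to it, the value rested on an estimated 17 to 48 reads in WT libraries against 4 to 67 in Het libraries. Its log2 difference was 0.39 (SE 0.71, limma adjusted p = 0.882), and -0.013 without Het 31 and 0.99 without Het 56, so its value turned on single libraries. Markers of B cells, myeloid cells and NK cells also peaked in Het 31, at mean log2 levels of 10.59, 8.27 and 9.73. WT 45 held the highest Socs2 value among WT libraries (34.9). Its levels of the same markers were the lowest of all libraries (8.02, 6.68 and 6.55). Whether other cells contributed to Socs2 was not tested.

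Socs4, a member with a long N-terminus that acts on epidermal growth factor receptor signalling, was at 1124.6, 912.2, 1112.8 and 1422.5 in WT libraries against 778.8, 1346.1, 1066.5 and 837.9 in Het libraries. Its close relative Socs5 was at 636.4, 571.8, 561.7 and 829.6 in WT libraries against 605.8, 687.9, 504.9 and 496.8 in Het libraries. In both genes WT 65 and Het 53 were the highest libraries of their genotype. The log2 differences were -0.20 (SE 0.19, limma adjusted p = 0.768) for Socs4 and -0.17 (SE 0.16, limma adjusted p = 0.765) for Socs5.

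Socs6, which is known to bind the receptor tyrosine kinase Kit, was at 407.1, 333.4, 342.0 and 519.8 in WT libraries against 435.9, 502.0, 420.6 and 388.0 in Het libraries. In GENCODE M21 Socs6 overlaps the processed pseudogenes AC122398.2 and AC122398.3 on its own strand and AC118614.1 on the opposite strand, so its count may hold reads of theirs. Socs7, known for binding insulin pathway adaptors, was at 1694.3, 1689.3, 1843.4 and 2074.9 in WT libraries against 1518.2, 1898.6, 1858.8 and 1484.5 in Het libraries. WT 65 and Het 53 again held the highest value of each genotype in both Socs6 and Socs7. The log2 differences were 0.14 (SE 0.17, limma adjusted p = 0.813) for Socs6 and -0.12 (SE 0.12, limma adjusted p = 0.781) for Socs7. Socs7 varied least of the 8 over the libraries, with a coefficient of variation of 11.4%, and Socs2 most, at 66.5%.

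The members varied among libraries in a pattern that crossed the genotypes. WT 65 and Het 53 held the lowest Socs1 and Socs3 of their genotype and the highest Socs4, Socs5, Socs6 and Socs7. Het 139 held the highest Socs1 and Socs3 of all libraries and the lowest Socs5 and Socs7. Socs3 differed 2.21-fold between its lowest and highest library and Socs4 1.83-fold.

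**Figure D3:**
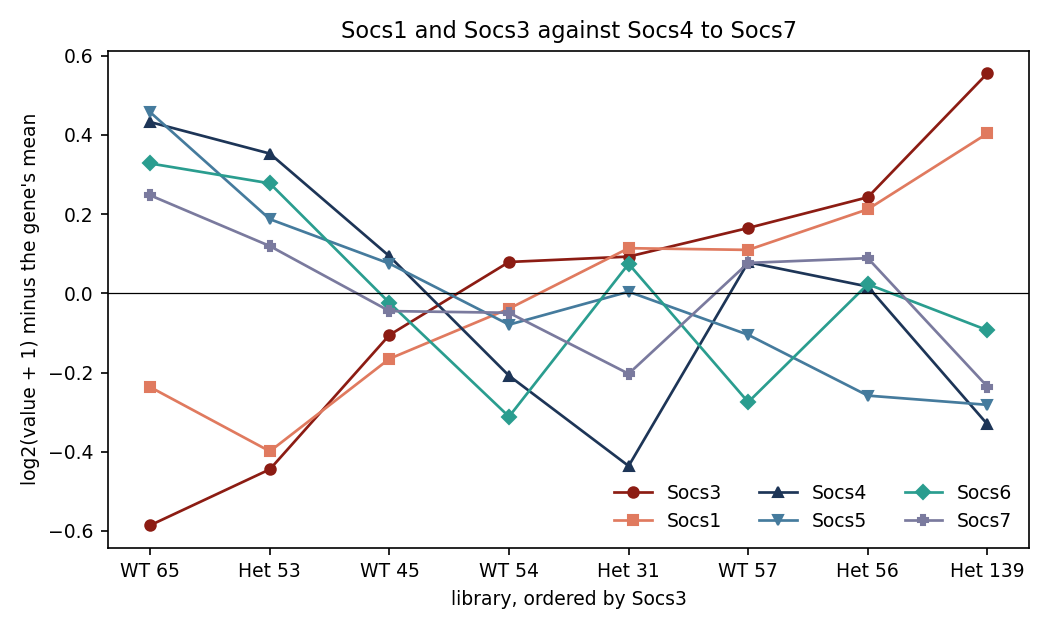
Log2(value + 1) of 6 SOCS family genes, each minus its own mean, in the 8 libraries ordered from lowest to highest Socs3. Socs1 and Socs3 rise from WT 65 and Het 53 at the left to Het 139 at the right, while Socs4 to Socs7 are highest at the left.

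Correlations over the 8 libraries were computed for all 28 pairs of members, on log2(value + 1), with exact 2-sided permutation p-values over 40320 pairings, adjusted over the 28. Pairs were added after these values had been seen, so their p-values describe the pattern and do not test it anew. Socs1 and Socs3 rose and fell together (Pearson r = 0.94, exact permutation p = 0.00062, adjusted p = 0.00868; Spearman rho = 0.95, exact permutation p = 0.00114, adjusted p = 0.0160). Socs3 and Socs5 moved in opposite directions (r = -0.95, exact permutation p = 4.96e-05, adjusted p = 0.00139; rho = -0.98, exact permutation p = 0.000397, adjusted p = 0.0111). Socs4 and Socs7 moved together (r = 0.92, exact permutation p = 0.00231, adjusted p = 0.0215), though by rho (0.88, exact permutation p = 0.00724) the pair missed the threshold (adjusted p = 0.0507). Socs1 and Socs5 passed by rho alone (rho = -0.90, adjusted exact permutation p = 0.0426; r = -0.84, adjusted exact permutation p = 0.0651). The other 24 pairs passed by neither measure.

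Without the 2 libraries farthest from the median of the second gene, r was 0.96 for Socs1 and Socs3 (WT 65 and Het 53 left out), -0.92 for Socs3 and Socs5 and 0.87 for Socs4 and Socs7 (WT 65 and Het 139 left out for both). The pairs of Socs1 with Socs3 and of Socs3 with Socs5 passed after any 1 library was left out. The pair of Socs4 with Socs7 did not pass without WT 57, WT 65 or Het 53. Within 1 genotype there are 4 libraries, too few for a correlation. With the genotype means removed, r was 0.93 for Socs1 and Socs3, -0.95 for Socs3 and Socs5 and 0.91 for Socs4 and Socs7. Pairing within genotype (576 pairings) then called 6 pairs: all those among Socs1, Socs3, Socs5 and Socs6, and not Socs4 with Socs7 (adjusted exact permutation p = 0.0556).

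**Figure D4:**
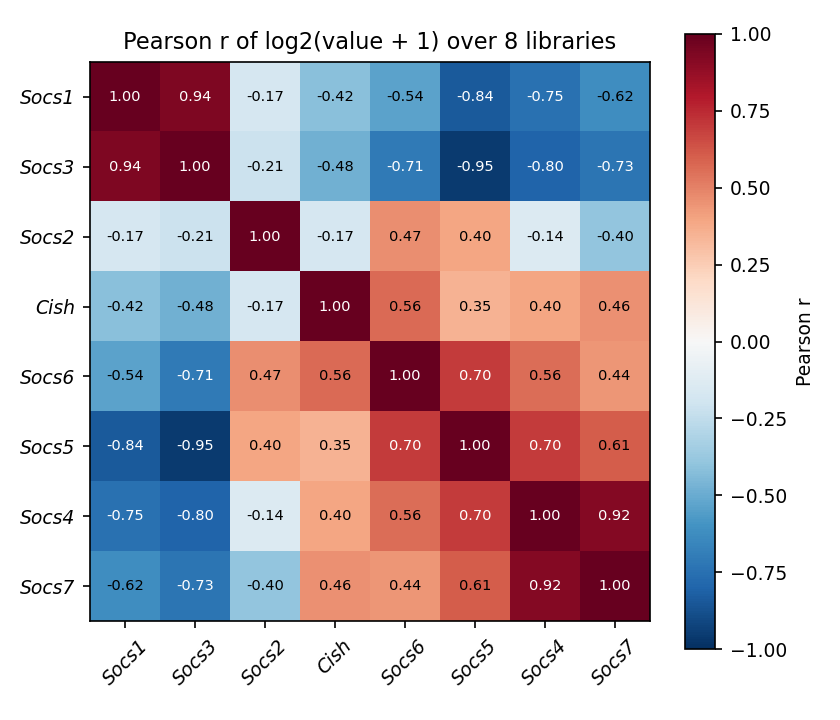
Pearson r of log2(value + 1) over the 8 libraries for each pair of SOCS family genes, from -1 (blue) to 1 (red). Socs1 and Socs3 form 1 block (0.94), Socs4 to Socs7 another (0.44 to 0.92), and all values between the blocks are negative (-0.54 to -0.95).

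Genes outside the family also had high correlations with members, which limits what those pairs say about the family. Of the 28 pairs of members, the 3 that passed by r were at 0.94, -0.95 and 0.92. Of 10224 other genes with a mean of at least 50, 2.97% had an r with Socs3 of at least 0.9 in either direction, 3.28% with Socs4, 1.37% with Socs1 and 0.166% with Cish. The median of that share over all such genes was 1.06%. The genes most like each member, by r over the 8 libraries, are given as a description. For Socs3 these were Afmid (0.99), which lies on the same chromosome with 3 protein-coding genes between, Fkbp2 (0.98) and Mrpl54 (0.98). For Socs1 they were Tmem229b, the class I histocompatibility gene H2-D1, whose count is uncertain because of close paralogs, and 2310039H08Rik (each 0.98). Nearest to Socs4 were 1700020I14Rik, 5430411K18Rik (both 0.98) and Fam160b1 (0.97), and to Socs5 were Atg14 (0.98), Zfp563 (0.97) and Galt (0.95). Nearest to Socs6 were Cd84, Slc30a4 (both 0.97) and Impad1 (0.96), to Socs7 were Cep68, A430078G23Rik and Pcnxl3 (each 0.97), and to Cish were Cnih4 (0.98), Mfap1a (0.95) and Snord100 (0.94). None of these genes passed the limma test, which 0.515% of all tested genes did. They were picked for their likeness to members that did not pass, so nothing further can be drawn from this.

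Transcript length and base composition were compared over the same libraries, and 1 of their 16 relations with members passed. The longest coding transcript of Socs1 is 2.91 kb and that of Socs3 2.55 kb, with 58.8% and 58.7% G and C. For Socs4, Socs5, Socs6 and Socs7 it is 6.88, 4.65, 6.04 and 7.02 kb, with 38.5%, 47.8%, 39.9% and 53.8%. Cish and Socs2 are also short, at 2.85 and 2.22 kb, with 56.4% and 47.5%. Neither followed Socs3 over the libraries (r = -0.48 for Cish and -0.21 for Socs2). Genes with an r of at least 0.9 with Socs3 had a median length of 1.66 kb, and those at -0.9 or below 5.50 kb, where the median of genes with a mean of at least 50 was 3.15 kb. For Socs4 the order was the opposite, at 7.65 kb and 1.94 kb. In each library, the mean log2 level of 1323 short genes (up to 1.5 kb) minus that of 3437 long genes (4 kb or more) was taken as a measure of length. This measure was -1.35, -0.95, -1.05 and -1.33 for WT 45, 54, 57 and 65, against -0.76, -1.18, -1.21 and -0.64 in Het 31, 53, 56 and 139. The same difference between 2390 genes of at least 55% and 2348 of at most 45% G and C was 0.05, 0.31, 0.29 and -0.04 in WT libraries against 0.09, -0.16, 0.10 and 0.21 in Het libraries.

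Among WT libraries the length measure was lowest in WT 45 (-1.35), closely followed by WT 65 (-1.33). Among Het libraries it was lowest in Het 56 (-1.21), closely followed by Het 53 (-1.18), and highest in Het 139. The base composition measure was lowest in Het 53 and WT 65 and highest in WT 54 and WT 57. The 1 relation that passed was Socs6 with base composition (r = -0.94, exact permutation p = 0.00124, adjusted p = 0.0198; rho = -0.90, exact permutation p = 0.00456, adjusted p = 0.0730; r = -0.93 without WT 54 and Het 53). Socs4 with length (r = -0.85, exact permutation p = 0.00885, adjusted p = 0.0708; rho = -0.81, exact permutation p = 0.0218, adjusted p = 0.174; r = -0.66 without Het 31 and Het 139) did not. Socs3 with base composition (r = 0.75, exact permutation p = 0.0313, adjusted p = 0.125; rho = 0.67, exact permutation p = 0.0831, adjusted p = 0.202; r = 0.77 without WT 54 and Het 53) did not either, and with the genotype means removed its r was 0.94. With the genotype means removed, r with base composition was also 0.88 for Socs1 and -0.81 for Socs4. It was -0.90 for Socs5, -0.94 for Socs6 and -0.64 for Socs7, and -0.56 for Cish and -0.40 for Socs2. On the length measure, r was -0.82 for Socs7 (exact permutation p = 0.0141, adjusted p = 0.0750). For Cish it was -0.58 (exact permutation p = 0.131, adjusted p = 0.187), and neither passed. After removal of the genotype means, r with length was -0.83 for Socs4, -0.79 for Socs7, -0.72 for Cish and -0.67 for Socs6. It was 0.67 for Socs3, 0.64 for Socs1, -0.49 for Socs5 and 0.13 for Socs2. No p-value was computed for values with the genotype means removed. The part of length and base composition in the opposed pattern of the family was not tested.

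**Figure D5:**
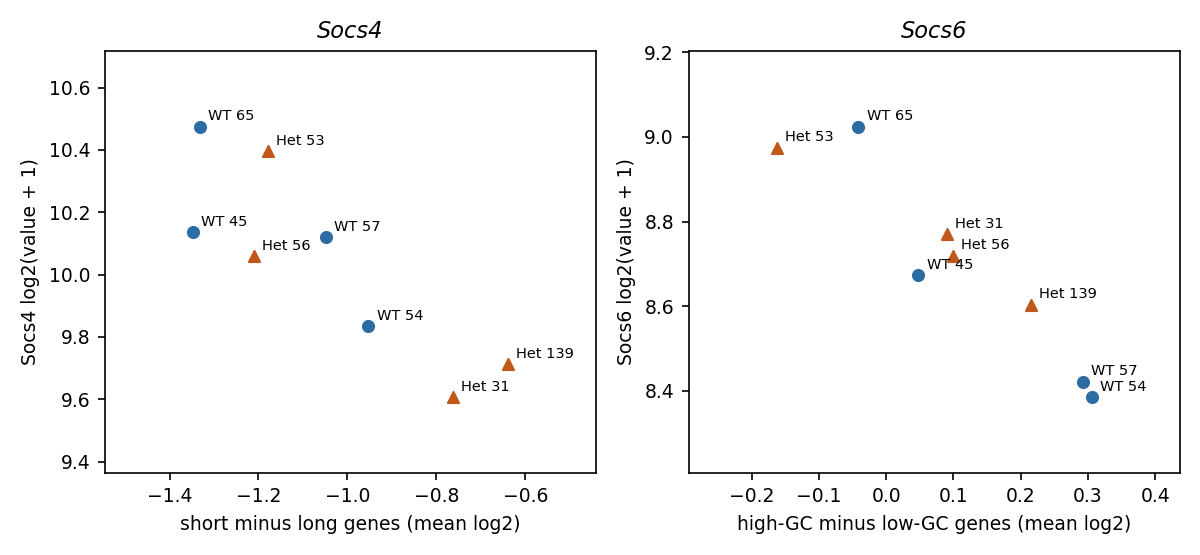
Left, log2(value + 1) of Socs4 against the mean log2 level of short minus long genes in each library. Right, Socs6 against that of high-GC minus low-GC genes. Circles are WT and triangles Het libraries, and values are lower towards the right in both panels (r = -0.85 and -0.94).

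The levels of immediate early genes and of heat shock genes were set against each member over the 8 libraries, with p-values adjusted over 24 relations computed, and none passed (smallest adjusted exact permutation p = 0.245). Socs4 had an r of 0.76 with heat shock genes (exact permutation p = 0.0334; rho = 0.81, exact permutation p = 0.0218; r = 0.85 without WT 45 and Het 139), and Socs6 one of 0.76 with immediate early genes (exact permutation p = 0.0294; rho = 0.71, exact permutation p = 0.0576; r = 0.40 without WT 54 and WT 65, on which it rests). Without WT 45, Socs7 passed with the heat shock list (r = 0.95, adjusted exact permutation p = 0.0476).

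The receptors, kinases and transcription factors that SOCS proteins act on gave 1 call, where 0.515% of all tested genes were called. The lists described next held 8, 12, 2 and 11 tested genes. Among the gamma chain receptors, the receptors of interleukins 2, 4, 7, 9, 15 and 21, 6 of 8 were higher and 2 lower in Het, and none passed (median log2 difference 0.04). Il9r, a receptor chain for interleukin 9, was at 13.5, 9.9, 13.1 and 31.6 in WT libraries against 114.2, 79.6, 27.4 and 63.6 in Het libraries. All Het libraries but Het 56 lay above all WT libraries (log2 difference 1.97, limma adjusted p = 0.199). Il2rb, shared by interleukins 2 and 15, was at 8145 ± 913 in WT libraries against 7223 ± 1068 in Het (SD, n = 4 each, limma adjusted p = 0.708).

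Among 12 tested receptors of the gp130, interleukin 10, interleukin 12 and interferon families, 7 were higher and 5 lower, with a median of 0.05. Lifr, the receptor of leukaemia inhibitory factor and a partner of gp130, fell. It was at 86.1, 211.8, 99.3 and 226.9 in WT libraries against 13.2, 22.4, 31.7 and 9.1 in Het libraries, without overlap (log2 change -2.98, SE 0.46, limma adjusted p = 0.0218). The nerve and glia genes were lower in the same 4 libraries, with 5 of 7 called lower against 0.515% of all tested genes, and stroma and endothelium markers were at a mean log2 level of 7.83 to 9.72 in WT libraries against 6.21 to 7.81 in Het. Their part in Lifr was not tested. Of 6 receptors of the growth hormone class, 2 could be tested, Prlr at 23.0 ± 28.2 in WT libraries against 5.68 ± 4.82 in Het and Csf2rb at 60.1 ± 28.1 and 94.6 ± 62.0 (SD, n = 4 each, limma adjusted p = 0.703 and 0.761).

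None of the 11 JAK kinases and STAT factors passed, with 6 higher and 5 lower and a median of 0.01. Stat5a, which relays interleukin 2 and 7 signals, was at 2773 ± 163 and 2607 ± 233 (SD, n = 4 each, limma adjusted p = 0.782).

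None of 13 other negative regulators passed (5 higher, 8 lower, median -0.07). Usp18, an interferon-induced brake on the interferon receptor, was at 744.9 to 1238.1 in WT, at 975.2 to 1248.7 in 3 Het libraries and at 3330.2 in Het 139 (limma adjusted p = 0.653). Ptpn6, a tyrosine phosphatase of lymphocytes, was at 17578 ± 1787 and 15261 ± 1708 (SD, n = 4 each, limma adjusted p = 0.653). Of 9 genes found for the elongins, Cul5, Cul2 and their partners, 5 were higher and 4 lower (median 0.16). Tceb1, the gene of elongin C, was at 919 ± 170 in WT libraries against 1157 ± 191 in Het, and Cul2 at 874 ± 160 and 1045 ± 105 (SD, n = 4 each, limma adjusted p = 0.635 and 0.652).

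Downstream of the receptors, STAT5-linked targets were evenly divided, with 6 higher, 6 lower and a median of -0.01. Gzmb, a cytotoxic protease induced by interleukin 2, was at 113.6, 259.3, 228.8 and 296.3 in WT libraries against 611.3, 397.0, 216.1 and 502.0 in Het libraries, with Het 56 inside the WT range (limma adjusted p = 0.528). NK cells also express Gzmb, and the mean log2 level of the 5 NK markers was likewise highest in Het 31 (9.73) and, among Het libraries, lowest in Het 56 (7.55). Their part in Gzmb was not tested. Ccnd3, a cyclin, was at 4845 ± 409 and 5301 ± 513 (SD, n = 4 each, limma adjusted p = 0.734).

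Immediate early genes, which respond to acute stimulation, were higher in 5 and lower in 13 of 18 (median -0.04), with none past the test. Zfp36, which promotes decay of cytokine mRNAs, was at 12299 ± 305 in WT libraries against 10328 ± 1213 in Het without overlap (SD, n = 4 each, limma adjusted p = 0.517). Atf3, a stress-responsive factor, was at 14.2, 5.7, 6.4 and 33.8 in the WT libraries and 29.2, 48.2, 42.8 and 22.8 in the Het libraries, with WT 65 inside the Het range (limma adjusted p = 0.529). Heat shock genes were higher in 2 and lower in 9 of 11 tested (median -0.47), again with none past the test. Dnajb1 was at 7152 ± 1428 and 5468 ± 1114 and Hspd1 at 2835 ± 829 and 2089 ± 474 (SD, n = 4 each, limma adjusted p = 0.601 and 0.635). Of 12 receptors, kinases and a substrate that SOCS proteins are known to bind or that signal beside them, 6 were higher and 6 lower (median 0.01). Egfr was at 8.7, 33.0, 12.3 and 35.8 in WT libraries, at 3.2 in Het 56 and listed at 0 in the other 3 Het libraries (limma adjusted p = 0.0885). Irs2, an insulin receptor substrate, was at 976 ± 156 and 745 ± 212 (SD, n = 4 each, limma adjusted p = 0.641).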

How the data were processed

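Messenger RNA libraries of naive CD8 T cells were made with a stranded kit, per the labels' protocols. The deposited values are a normalized signal for each of 22609 genes in 8 libraries. Per the submitters' processing notes, CASAVA, TopHat2, HTSeq, DESeq and the build mm9 are named, with no version or step stated. The step that normalized the values is not given in the sources used here, nor is the strand setting. Sorted values were compared rank by rank: all 8 libraries held to 2% of the rank's mean at 100% of 9513 ranks (those averaging 100 or more). They thus share 1 distribution, and no count model was used. The table was therefore tested on log2(value + 1).

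Genes with a mean of at least 10 (12048) were fitted together by limma 3.58.1 (R 4.3.3) using its mean-level trend, 2-sided, and p-values were adjusted by Benjamini-Hochberg over all of them at a threshold of 0.05. The test was checked on simulated data. Correlations used Python 3.11.15 with NumPy 2.4.6 and exact permutation over all pairings of libraries. Lengths and base composition came from GENCODE M21 coding transcripts, matched by symbol or RefSeq synonym for 96.0% of tested genes. The members and the gene lists were chosen with earlier results of these data known. Named genes were the members, per list the called genes or the 2 with the smallest p, and per member with a mean of at least 50 the 3 most correlated genes with a mean of at least 50. Eloc and Elob were matched under their older names Tceb1 and Tceb2. Pair correlations and the length and base composition measures were added after the values had been seen. Alternatives were other pseudocounts, filters, scalings and limma settings, and leaving out each library. The results of 1 gene list and of 1 gene are not reported here.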

Additional observations from a re-analysis of the deposited data

Results flagged for a closer look

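In each genotype, a single high or low library was sought with Dixon's ratio at its 95% critical value, and chance alone gives about 5% of groups. It was met in 7 of 96 groups (7.29%), and in no SOCS family member. Among genes, Usp18 was at 3330.2 in Het 139 (others 975.2 to 1248.7), Igtp at 7371.8 in Het 53 (others 8322.8 to 8462.3), Il9r at 31.6 in WT 65 (others 9.9 to 13.5) and Egfr at 3.2 in Het 56 (others listed at 0). Among mean log2 levels of lists, the other negative regulators were at 11.67 in Het 31 (others 11.79) and the nerve and glia markers at 7.19 in WT 45 (others 8.34 to 8.56). The list of receptors, kinases and a substrate that SOCS proteins bind or that signal beside them was at 10.18 in WT 45 (others 10.44 to 10.47).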

How the results depend on the processing

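No SOCS family member passed the test under any of the 17 alternatives (lowest adjusted p 0.421, limma, Socs2), and Socs1 and Socs3 to Socs7 kept the sign of their difference in all of them, though not its size. Over the alternatives the log2 difference ranged from 0.059 to 0.33 for Socs1, 0.065 to 0.41 for Socs3, -0.35 to -0.086 for Socs4, -0.27 to -0.051 for Socs5, 0.061 to 0.27 for Socs6 and -0.17 to -0.052 for Socs7, with both ends from leaving out 1 library (WT 54, WT 65, Het 31, Het 53 or Het 139). Of 135 member values under alternatives, 3 had the opposite sign, all from leaving out 1 library: the Cish difference ranged from -0.079 to 0.13 with 1 library left out and the Socs2 difference from -0.013 to 0.99 (log2). Socs2 could not be tested with a filter at a mean of 50. Genes called over the whole table numbered 123 with any value above 0, 14 with a mean of at least 50, and 11 to 91 with 1 library left out; the cause was not tested. Correlated member pairs numbered 3 under each pseudocount and scaling, 6 with genotype means removed, and 2 or 3 with 1 library left out. Relations with lists numbered 0 to 1 with 1 library left out and 0 under the other settings. No paired analysis was possible because the genotypes share no replicate number. Socs2 rested on an estimated 4 to 67 reads per library; the part of depth in its spread was not tested.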
